A study of Rattus norvegicus with 30 samples.

Results

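The stomach of rats killed 6 h after 1 dose of irinotecan was compared with the stomach of rats killed 1 h after the same dose. The arrays were chosen by their sample titles, 2 of the 6 h stomach and 2 of the 1 h stomach, 4 of the 30 arrays of the series, and every probe set other than the array controls was tested, 31042 in all. All rats were female DA rats aged 10 weeks, an inbred strain, and both groups had received irinotecan at 200 mg/kg into the peritoneum under light halothane. Stomach of undosed rats (0 h) was on 2 further arrays and is given as the baseline. Arrays of 24 h and 72 h entered the variance estimate, so that 10 stomach arrays were fitted together, and jejunum and colon of the same times served for a comparison of tissues. RNA came from pieces of the whole wall after a saline flush, and each array carried a pool of 3 rats, so the spread between the 2 arrays of a time is a spread between pools. The rats had free access to food. The sources used here do not give the hour of the day of dosing and of killing, whether pools with equal numbers in different tissues share rats, or whether the 0 h rats had halothane or a sham injection. Time since dosing, time since anaesthesia and injection, hour of the day and food eaten since dosing therefore cannot be told apart in this comparison. In a bulk sample, fewer cells of a type and less RNA per cell cannot be told apart either.

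Irinotecan is a prodrug that esterases turn into an inhibitor of topoisomerase I, the enzyme that relieves the twist in DNA ahead of replication forks and RNA polymerases. The drug traps the enzyme on cut DNA, and cells that meet this damage are known to activate p53, halt before mitosis and slow transcription. The stomach wall holds a glandular lining with acid-secreting parietal cells, pepsinogen-secreting chief cells and mucous cells, a thick smooth muscle coat and, in rats, a forestomach lined by squamous epithelium. Atp4a, the catalytic subunit of the acid pump of parietal cells, lay at 13.01 and 13.13 in log2 signal on the 6 h arrays, against 13.55 and 13.42 on the 1 h arrays. Pgc, a pepsinogen gene of chief cells, lay at 14.18 and 14.12 at 6 h, against 14.15 and 14.29 at 1 h. Both values are near the top of the array's range, which ended at 14.32, so the stomach label was borne out on all 4 arrays.

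All levels and differences below are in log2 units, and a difference is 6 h minus 1 h unless another is named. The medians of the 10 stomach arrays lay between 7.00 and 7.05. The 2 arrays of a time correlated with r of 0.989 at 6 h and 0.991 at 1 h over all probe sets, against 0.970 at 24 h and 0.947 at 72 h, and no 2 arrays held identical values. The 72 h arrays stood apart in pancreatic transcripts: Prss1, a trypsinogen, lay at 13.60 and 8.30 there, against 6.33 to 7.80 at 6 h and 5.99 to 6.16 at 1 h. With all 10 arrays sharing 1 variance estimate, limma placed 6 probe sets past an adjusted p of 0.05, 0.0193% of those tested. Of these 4 were higher (0.0129%) and 2 lower (0.00644%), while 2329 had an unadjusted p under 0.05. This fit of 10 arrays was the main test. Among the other settings was a fit of only the 0, 1 and 6 h arrays, called the 6-array fit from here on. It placed 299 past the threshold (0.963%), 98 higher (0.316%) and 201 lower (0.648%), and these included all 6. Where a gene is said below to have passed in the 6-array fit, it did not pass with 10 arrays unless that is stated.

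The 5 named genes past the threshold with 10 arrays were Mt2A, Angptl4 and Sphk1, which were higher at 6 h, and Chac1 and Slc8a1, which were lower. Mt2A encodes a metallothionein, a small protein that binds zinc and copper and is induced by metals, glucocorticoids and inflammation. It lay at 12.79 and 13.12 on the 6 h arrays, against 10.32 and 10.41 on the 1 h arrays, with 10.06 and 9.96 at 0 h. The 6 h arrays lay above all other stomach arrays, whose highest value was 12.23 on 1 array of 72 h. Mt2A rose by 2.59 ± 0.21 (standard error, 2 arrays against 2, limma adjusted p = 0.0181), a 6.00-fold higher signal. Of the other metallothionein genes, Mt3 lay at 7.81 and 7.99 at 6 h and 7.80 and 8.33 at 1 h, and the Mt1 probe set at 6.55 and 6.56 at 6 h and 6.32 and 6.69 at 1 h. Both pairs overlapped. Of the 12 measured genes of metallothioneins and zinc handling, Mt2A was the 1 that passed, and the median of the 12 was 0.11.

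The 250 bases before the start of Mt2A are shown because they carry the letters that metal-responsive transcription is known to work through, in a gene with a 6.00-fold difference. The sequence is RefSeq's on GRCr8, chr19:10838709-10838958, minus strand, read 5′ to 3′, and capitals mark the metal response cores TGCGCNC and TGCACNC on either strand.
Mt2A: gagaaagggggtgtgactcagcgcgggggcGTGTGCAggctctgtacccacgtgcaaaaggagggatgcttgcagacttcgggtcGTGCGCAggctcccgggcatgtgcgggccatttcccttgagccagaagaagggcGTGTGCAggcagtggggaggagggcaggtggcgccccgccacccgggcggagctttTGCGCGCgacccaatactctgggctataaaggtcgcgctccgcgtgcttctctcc
The window held 4 such cores, which began at positions -220, -165, -111 and -55 relative to the gene's start. At least 1 core was present in 7 of the 8 promoters of the zinc list that could be matched (87.5%), against 34.9% of the 11700 promoters of measured genes. These shares, like those of promoters below, were counted over a longer window that also held a short stretch after the start. A match of letters is a description and shows no binding.

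Angptl4 encodes a secreted inhibitor of lipoprotein lipase that is induced by fasting through fatty acid receptors of the PPAR family. It lay at 8.91 and 9.12 at 6 h, against 7.33 and 7.33 at 1 h, with 7.09 and 7.17 at 0 h, and rose by 1.69 ± 0.12 (adjusted p = 0.00886). Sphk1, the kinase that phosphorylates sphingosine, lay at 8.73 and 8.71 at 6 h, against 7.71 and 7.67 at 1 h, and rose by 1.03 ± 0.10 (adjusted p = 0.0479). Its 6 h values were above those of all other stomach arrays, which ended at 7.99. The probe set 1374529_at, which has no gene name in the annotation used, lay at 11.72 and 11.68 at 6 h, against 10.26 and 10.36 at 1 h (1.39, adjusted p = 0.0368).

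Chac1 encodes an enzyme that degrades glutathione and is a known target of the stress factor ATF4. It lay at 8.24 and 7.93 at 6 h, against 10.56 and 10.27 at 1 h, with 8.47 and 8.27 at 0 h, and fell by 2.33 between the times (standard error 0.165, adjusted p = 0.00886), a 5.04-fold higher signal at 1 h. The 1 h arrays lay above all other stomach arrays, whose highest value was 8.55 on 1 array of 24 h. Slc8a1 encodes the sodium-calcium exchanger of the plasma membrane. It lay at 7.43 and 7.61 at 6 h, against 8.73 and 8.91 at 1 h and 8.82 and 8.85 at 0 h, and fell by 1.30 (standard error 0.134, adjusted p = 0.0479). Its second, dimmer probe set, at a mean level of 6.12, differed by 0.05. Thus Chac1 was high at 1 h with 6 h at the 0 h level, whereas Slc8a1 was low at 6 h with 1 h at the 0 h level. Leaving out any 1 of the 4 arrays left 0 probe sets past the threshold in the 10-array fit, with the lone array of a time assumed to vary like the others.

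**Figure D1:**
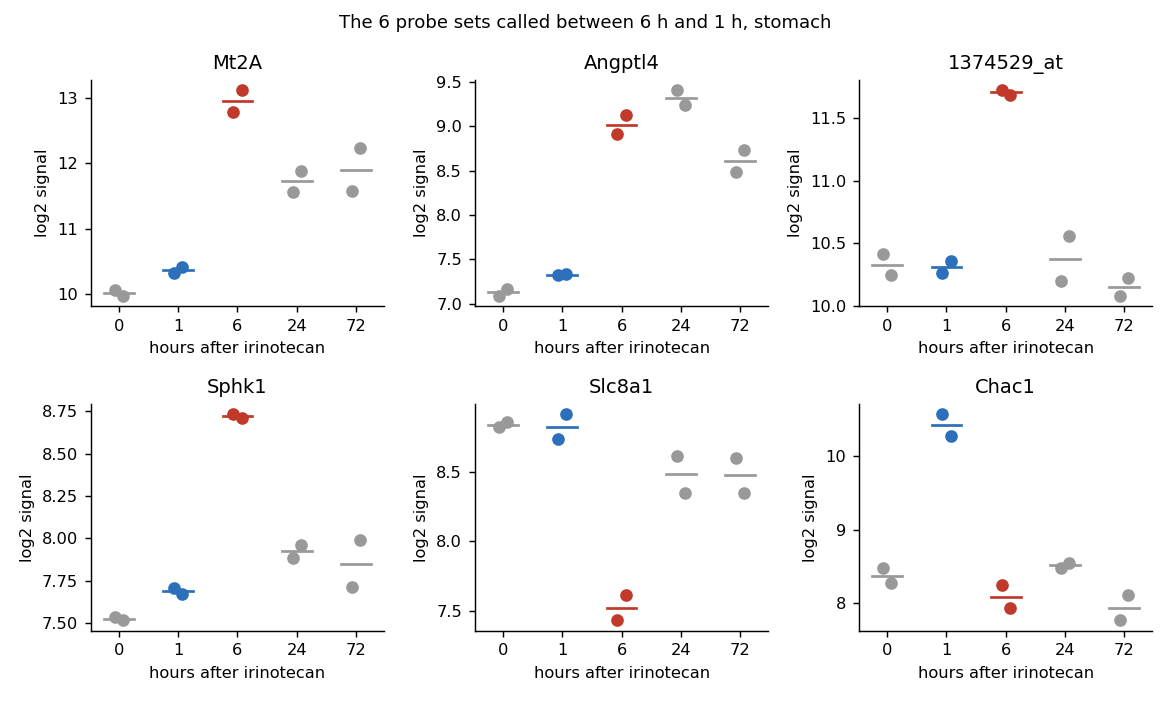
Log2 signal (vertical axis, a different range in each panel) of the 6 probe sets past the threshold with 10 arrays, by hours after irinotecan (horizontal axis, not to scale); points are single arrays, lines the mean of 2. Mt2A, Angptl4, Sphk1 and 1374529_at were higher on both 6 h arrays (red) than on both 1 h arrays (blue), Slc8a1 and Chac1 lower.

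Beyond these, the genes closest to passing in each direction, chosen among those whose 6 h and 1 h arrays did not overlap, are given by their values. Without regard to any test, the arrays failed to overlap with 6 h higher for 20.7% of probe sets and with 6 h lower for 21.1%. On the higher side stood Pdk4, the kinase that shuts down pyruvate dehydrogenase in fasting, at 11.29 and 11.11 at 6 h against 9.90 and 10.22 at 1 h and 8.95 and 8.89 at 0 h (difference 1.14, adjusted p = 0.0684). The other, dimmer probe set of Pdk4 differed by 0.90. Tnfrsf12a, the receptor for the cytokine TWEAK, lay at 8.48 and 8.70 at 6 h, against 7.38 and 7.36 at 1 h (1.22, adjusted p = 0.144). Adamts9, a secreted metalloprotease, differed by 0.88 (0.09 by its other, dimmer probe set) and Rab37, a small GTPase of secretory vesicles, by 1.72. The other 5 were S100g (3.14), Prap1 (2.09), Tm4sf20 (1.86), Alpi (1.37) and Slc26a3 (1.33), all of which are abundant in intestine and are described with the cell markers below. All 9 passed in the 6-array fit.

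On the lower side Ddit4, an inhibitor of the growth kinase mTOR that stress and glucocorticoids induce, lay at 7.87 and 8.41 at 6 h, against 9.68 and 10.05 at 1 h and 7.46 and 8.04 at 0 h (-1.73, adjusted p = 0.144). Pim3, a serine/threonine kinase, lay at 9.96 and 9.91 at 6 h, against 11.21 and 10.84 at 1 h and 9.74 and 9.48 at 0 h (-1.09). Both had their highest stomach values at 1 h. Slc2a4, the insulin-responsive glucose transporter of muscle and fat, differed by -1.06 (-0.59 by its other, dimmer probe set) and Prkaca, the catalytic subunit of protein kinase A, by -0.77. The other 6 were Ldb2, a cofactor of LIM-domain proteins (-1.18), Gphn, the scaffold protein gephyrin (-0.96), Mipol1 (-0.91), Dock1, an activator of the GTPase Rac (-0.85), Slco3a1, an organic anion transporter (-0.82, and -0.49 by its other, dimmer probe set), and Rps6ka2, a ribosomal S6 kinase (-0.61). These 6 genes span between 275 and 529 kb of genome, and all 10 passed in the 6-array fit.

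The 6-array fit rests on 2 arrays against 2 like the other, and single arrays moved its count. Leaving out replicate 1 or 2 of the 6 h arrays left 88 or 49 probe sets past the threshold, of which 54 and 40 were among the 299. Leaving out replicate 1 or 2 of the 1 h arrays left 10 or 41, of which 10 and 34 were among the 299. Counting each gene by its brightest probe set, 175 of 14217 named genes passed (1.23%), 64 higher (0.45%) and 111 lower (0.781%), and the median difference of all named genes was 0.00. Counts of list members that passed in the 6-array fit, given below, are to be read beside these shares. Of the 64 higher genes, 63 had both 6 h arrays above both 0 h arrays, where 23.3% of all named genes did, and 16 had both 1 h arrays below both 0 h arrays, where 20.0% did. Of the 111 lower genes, 97 had both 6 h arrays below both 0 h arrays, where 23.4% of all named genes did, and 60 had both 1 h arrays above both 0 h arrays, where 21.7% did, 46 of them in both ways. The genes were chosen on the same 6 h and 1 h arrays, so these counts are a description.

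Genes of mitosis lay lower at 6 h as a group. This list holds cyclins, kinases, kinesins and spindle proteins that dividing cells make before and during mitosis, which in the stomach are found in the proliferating neck of the glands and the basal layer of the forestomach. Of 35 measured members 34 lay below 0, and 31 had both 6 h arrays below both 1 h arrays, where 23.5% of named genes did. The median was -0.40, against 0.00 over all named genes, and the list's mean level was 7.09 and 7.34 on the 6 h arrays, against 7.65 and 7.75 at 1 h and 7.84 and 7.74 at 0 h. With 10 arrays 0 of the 35 passed. In the 6-array fit 6 passed, all lower, where 0.781% of named genes passed as lower. Ccnb2, a mitotic cyclin, lay at 6.98 and 7.48 at 6 h, against 8.26 and 8.25 at 1 h and 8.24 and 8.22 at 0 h (-1.02, adjusted p = 0.235 with 10 arrays and 0.024 with 6). Mki67, the gene of the proliferation antigen Ki-67, lay at 6.88 and 7.35 at 6 h, against 8.19 and 8.23 at 1 h (-1.10). On these genes the 1 h arrays were close to the 0 h arrays and the 6 h arrays were lower than both. The list's mean was 7.41 and 7.62 at 24 h. The others that passed in the 6-array fit were Top2a (-1.09), the topoisomerase of chromosome segregation, Cdkn3 (-1.11), a phosphatase of cyclin-dependent kinases, Nusap1 (-0.84), a spindle protein, and Cenpf (-0.72), a kinetochore protein. Ccnb1, the cyclin that drives entry into mitosis, lay at 7.28 and 7.30 at 6 h, against 7.70 and 7.68 at 1 h (-0.40), and did not pass in either fit.

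The promoter of Ccnb2 is shown because mitotic genes are known to share a CCAAT box and the cell cycle homology region (CHR), through which they are held off outside late cell cycle. It is RefSeq's on GRCr8, chr8:79981659-79981908, minus strand, the 250 bases before the start, and capitals mark the CHR letters TTTGAA and the box CCAAT on either strand.
Ccnb2: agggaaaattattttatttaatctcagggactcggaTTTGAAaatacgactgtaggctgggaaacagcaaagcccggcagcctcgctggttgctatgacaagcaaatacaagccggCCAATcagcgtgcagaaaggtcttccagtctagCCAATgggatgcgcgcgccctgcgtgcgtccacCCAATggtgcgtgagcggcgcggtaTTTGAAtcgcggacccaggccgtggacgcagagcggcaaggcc
The window held 2 CHR matches and 3 CCAAT boxes, with the CHR matches at positions -214 and -43. Among the 31 mitosis promoters that could be matched, 24 held TTTGAA (77.4%) and 25 held CCAAT (80.6%), against 12.3% and 37.3% of the promoters of measured genes. Genes of DNA replication and S phase, the other arm of proliferation, stood closer to 0: 22 of 32 lay below 0 with a median of -0.13, 0 passed with 10 arrays, and Pola1 (-0.68), a DNA polymerase subunit with a span of 314 kb, was the 1 that passed in the 6-array fit. Mcm5, a part of the replicative helicase, differed by -0.23.

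Chaperones of the endoplasmic reticulum lay lower at 6 h. These proteins fold secreted and membrane proteins, of which chief and mucous cells make large amounts. Of 25 measured members 21 lay below 0, and 15 had both 6 h arrays below both 1 h arrays, where 23.5% of named genes did. The median was -0.28, and the list's mean level was 9.90 and 9.96 at 6 h, against 10.28 and 10.15 at 1 h and 10.30 and 10.14 at 0 h. Hspa5, the main chaperone of the compartment, lay at 10.82 and 11.05 at 6 h, against 11.55 and 11.45 at 1 h and 11.71 and 11.58 at 0 h (-0.57, adjusted p = 0.236). Calr, which encodes calreticulin, was the 1 member that passed in the 6-array fit (-0.68, adjusted p = 0.0466 there), and 0 passed with 10 arrays. Hyou1 (-0.71), Sdf2l1 (-0.68), Pdia4 (-0.65), Creld2 (-0.62), Syvn1 (-0.55) and Pdia6 (-0.51) lay on the same side without passing. Ddit3, the gene of the stress factor CHOP, differed by -0.28. Bhlha15, a transcription factor of secretory cells that enlarges their secretory apparatus, lay at 7.06 and 7.05 at 6 h, against 7.96 and 7.88 at 1 h and 8.86 and 8.32 at 0 h, and passed in the 6-array fit (-0.87). It belongs to the chief cell list, not to the chaperones, and was the lowest member there. The 9 measured chief cell genes had a median of -0.06, with 6 below and 3 above 0.

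The promoter of Hspa5 is shown for the repeated CCAAT boxes that endoplasmic reticulum stress elements are built around. It is RefSeq's on GRCr8, chr3:38452766-38453015, plus strand, with the box CCAAT in capitals on either strand.
Hspa5: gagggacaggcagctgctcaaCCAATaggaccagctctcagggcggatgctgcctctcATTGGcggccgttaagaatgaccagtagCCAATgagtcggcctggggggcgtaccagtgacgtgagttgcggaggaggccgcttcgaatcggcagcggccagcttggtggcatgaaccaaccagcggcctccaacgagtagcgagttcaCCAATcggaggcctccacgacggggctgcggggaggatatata
The window held 4 CCAAT boxes. Of the 21 promoters of this list that could be matched, 19 held at least 1 (90.5%), against 37.3% of the promoters of measured genes. The mitosis list, with 80.6%, also held the box more often than all promoters, so the letters do not set this list apart.

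The targets of ATF4 and the amino acid response lay on both sides of 0. Their median was -0.13 over 27 measured genes, 14 below and 13 above 0, with members from -2.33 for Chac1 up to 0.97. Both 6 h arrays lay below both 1 h arrays for 11 members, where 23.5% of named genes did so. They lay above for 3, where 20.3% did. Chac1 was the 1 that passed in either fit, and Aldh18a1 differed by -0.66. Atf4 itself lay at 11.53 and 11.74 at 6 h, against 11.86 and 11.98 at 1 h (-0.28). Trib3, a pseudokinase induced by ATF4, lay at 7.43 and 7.41 at 6 h, against 7.91 and 7.86 at 1 h and 7.48 and 7.36 at 0 h (-0.47, adjusted p = 0.193). Asns, the asparagine synthetase gene, differed by 0.06 with arrays between 9.42 and 10.19.

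Genes of ribosome biogenesis, which build ribosomes in the nucleolus, lay higher at 6 h. Of 35 measured members 34 lay above 0, with a median of 0.27, and 29 had both 6 h arrays above both 1 h arrays, where 20.3% of named genes did. The list's mean level was 8.60 and 8.65 at 6 h, against 8.39 and 8.34 at 1 h and 8.37 and 8.39 at 0 h. The differences were small: the highest were 0.63 for Heatr1 and 0.62 for Rrp12, both factors of ribosomal RNA processing, and these were the 2 that passed in the 6-array fit, while 0 passed with 10 arrays. Ncl, the gene of nucleolin, lay at 10.72 and 10.90 at 6 h, against 10.29 and 10.43 at 1 h (0.45). Ddx21, a nucleolar helicase, differed by 0.52. The member below 0 was Cmss1 (-0.38), whose span is 298 kb.

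Fuel genes of the fasting state also lay higher. Of 26 measured genes 20 lay above 0, with a median of 0.19, and Angptl4 passed with 10 arrays and Pdk4 as well in the 6-array fit. Cpt1a, which admits fatty acids to mitochondria, lay at 10.71 and 10.84 at 6 h, against 10.22 and 10.56 at 1 h (0.39). Plin2, a lipid droplet coat protein, lay at 9.34 and 10.08 at 6 h, against 8.65 and 8.87 at 1 h (0.95). Markers of fat cells, which use these genes, had a mean of 7.95 and 8.88 at 6 h, against 8.31 and 8.15 at 1 h, so they were high on 1 array of 6 h, and their part in the result was not tested. For the FoxO and low-insulin list the median of 17 genes was 0.01, and Ddit4 was the 1 that passed in the 6-array fit. Cholesterol synthesis genes had a median of -0.16, with 17 of 19 below 0 and 0 past either threshold, among them Dhcr7 (-0.52) and the regulator Srebf2 (-0.29).

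**Figure D2:**
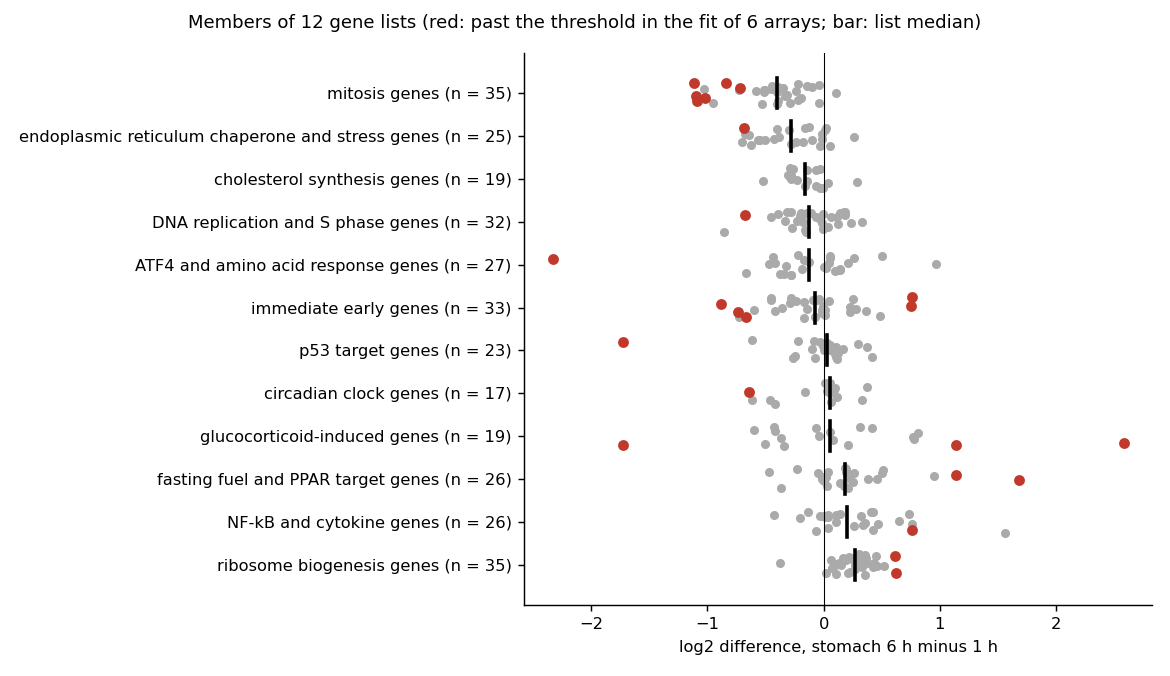
Difference of 6 h and 1 h in log2 (horizontal axis) for the members of 12 gene lists (rows, n measured genes); grey and red points are genes, red those past the threshold in the 6-array fit, and the black bar is the list's median. Mitosis genes lay lowest, with a median of -0.40, and ribosome biogenesis genes highest, with 0.27.

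Immediate early genes, which cells switch on within minutes of a stimulus, lay on both sides of 0, 22 below and 11 above. Over 33 measured genes the median was -0.08, while against 0 h it was 0.52 at 6 h and 0.61 at 1 h, so at both times the list lay above the undosed stomach (both values use the same 0 h arrays). Both 6 h arrays lay below both 1 h arrays for 12 members, where 23.5% of named genes did so. They lay above for 6, where 20.3% did. With 10 arrays 0 passed. In the 6-array fit 3 passed as lower and 2 as higher, where 0.781% and 0.45% of named genes did. The lower ones were Rhob, a small GTPase (-0.74), Zfp36, which destabilises cytokine messages (-0.67), and Nr4a2, an orphan nuclear receptor (-0.88). Rhob lay at 10.55 and 10.73 at 6 h, against 11.39 and 11.37 at 1 h and 9.60 and 9.84 at 0 h, so 6 h lay between the other 2 times. The higher ones were Fosl1, a partner in the AP-1 factor, and Maff, a small Maf protein, each with 0.76. Fosl1 lay at 7.28 and 7.51 at 6 h, against 6.59 and 6.68 at 1 h and 6.71 and 6.59 at 0 h. Fos lay at 9.05 and 9.98 at 6 h, against 9.73 and 9.86 at 1 h (-0.28), Egr1 at 9.82 and 9.90 at 6 h, against 9.60 and 9.61 at 1 h (0.26), and Myc at 9.18 and 9.26 at 6 h, against 9.47 and 9.31 at 1 h (-0.17). None of these last genes passed in either fit, and all stood above their 0 h arrays at both times.

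Glucocorticoid-induced genes moved in both directions. Their median was 0.05 over 19 genes, with Mt2A past the threshold with 10 arrays, Pdk4 higher and Ddit4 lower in the 6-array fit. Fkbp5, a chaperone of the receptor, lay at 10.19 and 10.24 at 6 h, against 9.36 and 9.52 at 1 h (0.78 by its brightest probe set). Tsc22d3, an anti-inflammatory leucine zipper gene, lay at 10.77 and 10.87 at 6 h, against 11.22 and 11.11 at 1 h (-0.35). For both genes the arrays of both times lay above the 0 h arrays, and the list's median against 0 h was 0.73 at 6 h and 0.89 at 1 h.

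Targets of p53 showed little difference between the times, with a median of 0.03 over 23 genes. Cdkn1a, the p21 inhibitor of cyclin-dependent kinases, lay at 9.36 and 9.71 at 6 h, against 9.81 and 10.50 at 1 h and 8.93 and 8.99 at 0 h (-0.62, adjusted p = 0.666). Mdm2, the ubiquitin ligase that p53 induces against itself, lay at 8.79 and 8.93 at 6 h, against 8.69 and 8.83 at 1 h (0.10). Ccng1, cyclin G, lay at 10.34 on both 6 h arrays, against 9.95 and 9.90 at 1 h and 9.95 and 9.70 at 0 h (0.42, adjusted p = 0.39). Only Ddit4 passed in the 6-array fit among the 23. Clock genes had a median of 0.05 over 17 genes, and Npas2 (-0.64), an activator of the clock, passed in the 6-array fit. Per1 lay at 8.52 and 8.59 at 6 h, against 8.88 and 9.06 at 1 h (-0.42), and Per2 at 8.14 and 7.97 at 6 h, against 7.78 and 7.58 at 1 h (0.37), and neither passed.

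A few genes of inflammation passed as higher at 6 h in the 6-array fit, and 0 of the NF-kB, neutrophil and macrophage lists passed with 10 arrays. The NF-kB and cytokine list had 21 of 26 genes above 0 and a median of 0.20, and Icam1, the endothelial adhesion molecule for leukocytes, was the 1 that passed. Icam1 lay at 8.35 and 8.38 at 6 h, against 7.67 and 7.53 at 1 h and 7.36 and 7.35 at 0 h (0.77). Ccl2, a chemokine that attracts monocytes, lay at 8.37 and 9.45 at 6 h, against 7.30 and 7.40 at 1 h (1.56, adjusted p = 0.0522 in the 6-array fit). Il6 differed by 0.76 and Ptgs2, the inducible cyclooxygenase, by 0.43, and neither passed. Of the 9 neutrophil genes the calprotectin subunits S100a8 (1.45) and S100a9 (1.61) passed in the 6-array fit. S100a8 lay at 6.73 and 7.42 at 6 h, against 5.56 and 5.68 at 1 h and 5.47 and 5.58 at 0 h, while the list's other 7 genes differed by at most 0.20. The macrophage list had a median of 0.20, and its mean level was 7.71 and 8.11 at 6 h, against 7.55 and 7.75 at 1 h and 7.71 and 8.04 at 0 h, so the times overlapped.

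Some further genes that passed as higher in the 6-array fit are named after their values were seen and stand for no group. Stat3, the transcription factor of interleukin-6 signalling, lay at 10.22 and 10.11 at 6 h, against 9.10 and 9.10 at 1 h and 9.46 and 9.68 at 0 h (1.06). Serpina3n, an acute phase protease inhibitor, lay at 7.46 and 8.26 at 6 h, against 6.04 and 6.19 at 1 h (1.74), and Ifitm1 at 10.33 and 10.87 at 6 h, against 8.52 and 8.50 at 1 h (2.09). Steap4, a metalloreductase, differed by 1.73 and the acute phase gene Saa3 by 1.17. The receptor subunit Il6st lay at 9.10 and 9.21 at 6 h, against 8.44 and 8.31 at 1 h (0.78). Timp1, an inhibitor of matrix metalloproteases, lay at 11.20 and 11.68 at 6 h, against 9.52 and 10.13 at 1 h (1.62), and Grem1, a secreted antagonist of BMP signals, at 10.07 and 10.03 at 6 h, against 8.95 and 9.01 at 1 h (1.07).

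The other lists had medians between -0.06 and 0.14: chief cell, mucous cell, gastric hormone, fibroblast, endothelial, lymphocyte, mast cell, neuron and glia, red blood cell and adipocyte genes, and interferon, apoptosis, EGF family, TGF-beta and heat shock genes. In the 6-array fit they held few genes past the threshold. Besides Timp1, Grem1 and Bhlha15, these were Cryab, a small heat shock protein of muscle, at 10.62 and 10.44 at 6 h, against 9.38 and 9.65 at 1 h (1.01), Tgif1, a repressor in TGF-beta signalling (0.70), and Adrb3, the adrenoceptor of fat cells (-0.71).

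Long genes lay lower at 6 h. Genomic span was taken from RefSeq on GRCr8 for 14167 of the 14217 named genes. In the 6-array fit, the 111 genes that passed as lower had a median span of 237 kb, and 62 of them exceeded 100 kb (55.9%). The 64 that passed as higher had a median span of 12.3 kb, and 1 exceeded 100 kb (1.56%). Among all named genes the median was 22.3 kb, and 13.7% exceeded 100 kb. By bins of span the median difference was 0.01 for 3879 genes under 10 kb, 0.01 for 4498 genes of 10 to 30 kb, 0.00 for 3848 genes of 30 to 100 kb, -0.06 for 1513 genes of 100 to 300 kb and -0.14 for 429 genes over 300 kb. In the last bin 296 genes lay below 0 (69.0%), 47 passed as lower in the 6-array fit (10.96%) and 0 as higher, against 0.781% and 0.45% of all named genes. The 4 pairings of a 6 h array with a 1 h array gave medians from -0.15 to -0.10 for these genes. Against 0 h their median was -0.13 at 6 h and 0.01 at 1 h, so it was the 6 h arrays that were low.

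Brightness moved with this result: the 196 genes over 300 kb that were brighter than the median probe set had a median of -0.32 and the 233 dimmer ones -0.05. Examples among the 47 were Vps13b, a Golgi protein gene of 577 kb (-1.29), Plcb1, a phospholipase C gene of 711 kb (-1.30), Kcnma1, the large-conductance potassium channel gene of 706 kb (-1.11), Magi1, a junction scaffold gene of 606 kb (-1.08), and Ptprd, a receptor phosphatase gene of 2322 kb (-0.996), chosen after their values were seen. Ptprd lay at 7.36 and 7.43 at 6 h, against 8.49 and 8.29 at 1 h and 8.36 and 8.42 at 0 h. Slc8a1 and Kcnma1 are active in smooth muscle, whose markers had a median of -0.27 between the times, and the part of that tissue in the result was not tested. In the jejunum and the colon the median of the same 429 genes was -0.12 and -0.13 between the same times.

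**Figure D3:**
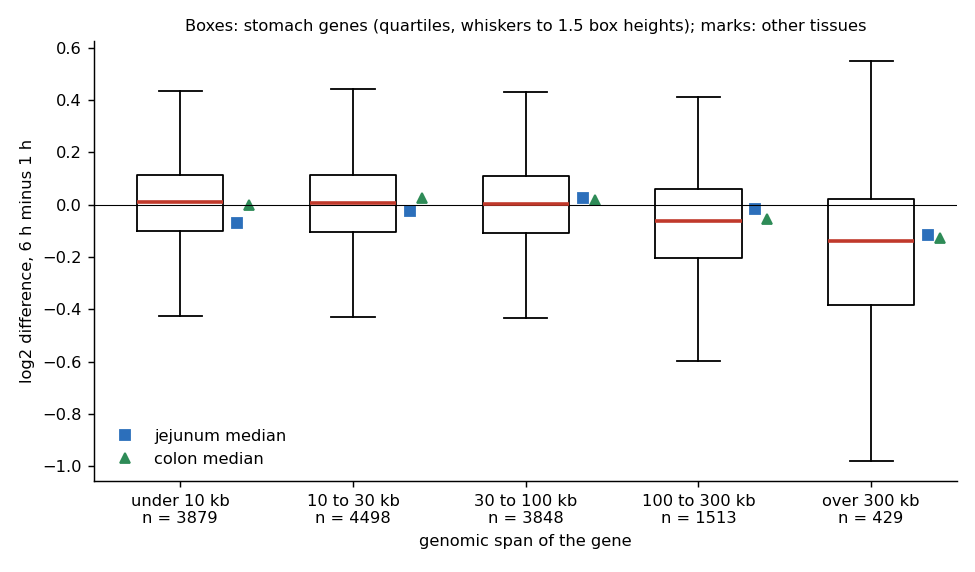
Difference of 6 h and 1 h in log2 (vertical axis) for named genes in 5 bins of genomic span (horizontal axis, n genes); boxes are quartiles in the stomach with the median in red, single genes beyond the whiskers are not drawn, and the square and triangle are the medians of the same genes in jejunum and colon. The stomach median was 0.01 for genes under 10 kb and -0.14 for genes over 300 kb.

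Several lists of cell markers differed between the arrays, and their part in the results above was not tested. All 12 parietal cell genes lay below 0, with a median of -0.29, although Atp4b, a defining subunit of the acid pump, differed by -0.06. The list's mean was 10.33 and 10.23 at 6 h, against 10.83 and 10.51 at 1 h. Esrrg, a nuclear receptor of parietal cells with a span of 618 kb, passed as lower in the 6-array fit (-1.23), and Slc4a2, the exchanger that supports acid secretion, differed by -0.88. The same probe set of Esrrg differed by -0.91 in the jejunum and -1.28 in the colon, where the list's medians were -0.01 and -0.05. All 21 smooth muscle genes lay below 0, with a median of -0.27. Their mean was 10.82 on both 6 h arrays, against 11.06 and 11.30 at 1 h and 10.76 and 11.12 at 0 h, so 6 h lay within the range of the undosed arrays. Smtn, a contractile protein gene, passed as lower in the 6-array fit (-1.20). Acta2, smooth muscle actin, lay at 11.07 and 10.61 at 6 h, against 11.99 and 11.68 at 1 h and 11.06 and 11.98 at 0 h.

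Squamous epithelium genes varied more among undosed pools than between the times. Their mean was 8.74 and 8.83 at 6 h, against 8.61 and 8.26 at 1 h, while the 0 h arrays lay at 7.59 and 9.73, and Krt5 alone spanned 7.07 to 9.58 at 0 h. The list's median difference was 0.35, with Sprr1a and Sprr3, proteins of the cornified layer, at 1.21 each, and 0 of 20 genes passed in either fit. Pancreatic acinar genes had a mean of 8.29 and 7.60 at 6 h, against 7.64 and 7.54 at 1 h, so that 1 array of 6 h was high and the other was not. Amy2a3, pancreatic amylase, lay at 9.37 and 7.88 at 6 h, against 7.06 and 7.03 at 1 h. Zg16, also a mucus protein gene of intestine, lay at 7.75 and 8.04 at 6 h, against 6.59 and 6.60 at 1 h, and was the 1 of 19 to pass in the 6-array fit (1.30).

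Transcripts of intestinal epithelium were higher on both 6 h arrays. All 12 genes of the absorptive list lay above 0, with a median of 0.36, and the list's mean was 8.01 and 8.22 at 6 h, against 7.42 and 7.70 at 1 h and 7.56 and 7.54 at 0 h. At 24 h the mean was 7.18 and 7.81, and at 72 h 8.66 and 7.89, so 1 array of 72 h lay above both 6 h arrays. Alpi, intestinal alkaline phosphatase, lay at 7.87 and 8.11 at 6 h, against 6.44 and 6.81 at 1 h (1.37), and with Apoa1 (1.12) passed in the 6-array fit. S100g, an intestinal calcium-binding protein gene, lay at 8.65 and 10.06 at 6 h, against 6.06 and 6.38 at 1 h and 6.01 and 6.27 at 0 h (3.14 ± 0.46, adjusted p = 0.144). This was the largest difference of any named gene counted by its brightest probe set, with the 2 arrays of 6 h differing by more than a log2 unit. Tm4sf20 lay at 7.92 and 8.73 at 6 h, against 6.18 and 6.74 at 1 h, and the same probe set reached 12.45 and 12.53 in the 6 h jejunum. Prap1 lay at 8.33 and 9.06 at 6 h, against 6.70 and 6.52 at 1 h, with 12.80 on both arrays of the 6 h jejunum. The chloride exchanger Slc26a3 lay at 6.83 and 7.41 at 6 h, against 5.85 and 5.73 at 1 h. Muc2, the mucin of intestinal goblet cells, lay at 8.14 and 7.84 at 6 h, against 7.01 and 6.87 at 1 h (1.05), and passed in the 6-array fit, as a gene named after its values were seen. Not every defining gene of the list moved with these: Fabp2, a fatty acid-binding protein gene of enterocytes, lay at 11.60 and 12.06 at 6 h, against 10.93 and 12.40 at 1 h, and Apoa4 at 6.93 and 7.02 at 6 h, against 6.94 and 6.76 at 1 h.

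**Figure D4:**
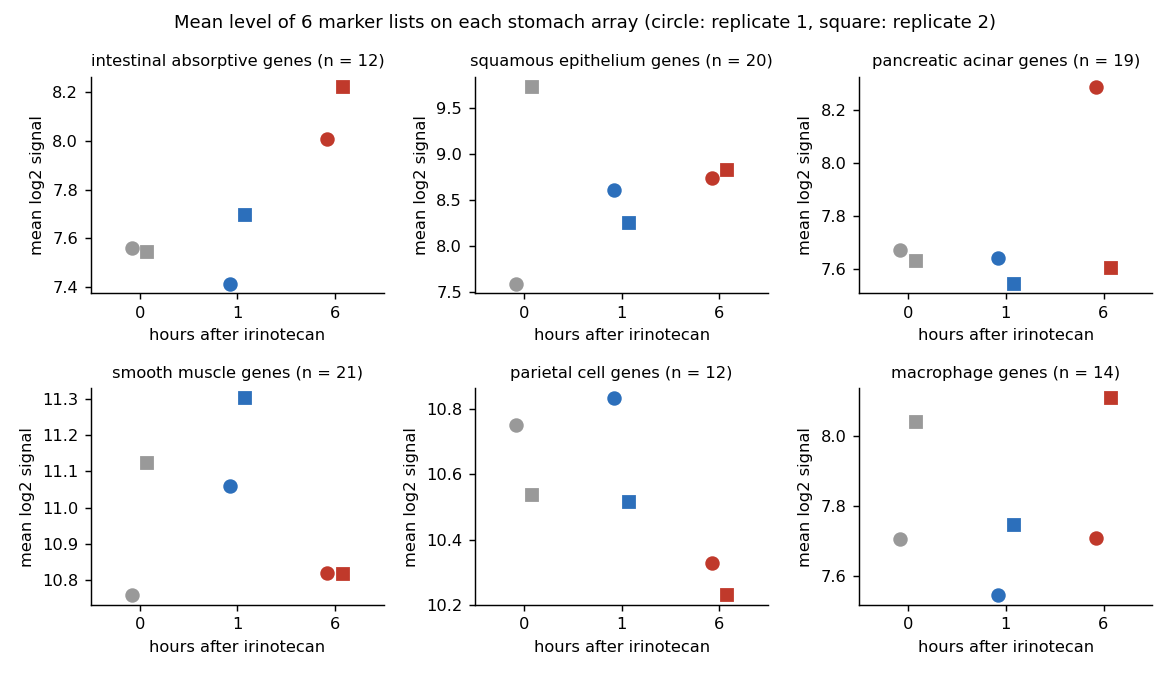
Mean log2 signal (vertical axis, a different range in each panel) of 6 lists of marker genes on each stomach array of 0, 1 and 6 h after irinotecan (horizontal axis, not to scale). Among the arrays drawn, intestinal absorptive genes lay higher on both 6 h arrays than on all others, parietal cell genes lower, and pancreatic acinar genes were high on 1 array of 6 h only.

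The difference of 6 h and 1 h was then set against the same difference in jejunum and colon, in 1 limma fit of all 30 arrays that treats the tissues as independent although they may share rats. The difference between stomach and jejunum passed for 9 probe sets (0.029%), with 3214 at an unadjusted p under 0.05, and that between stomach and colon for 3 (0.00966%), with 1807 at an unadjusted p under 0.05. Leaving out 1 array of the compared times gave between 0 and 6 in each comparison. Chac1 passed against both. It differed by -2.33 in the stomach, -0.62 in the jejunum and -0.47 in the colon, a stomach minus jejunum difference of -1.71 ± 0.25 (adjusted p = 0.0214) and a stomach minus colon difference of -1.86 ± 0.25 (adjusted p = 0.02). In the jejunum Chac1 lay at 7.63 and 7.61 at 6 h, against 7.99 and 8.49 at 1 h, so its 1 h level was higher in the stomach than in the jejunum. Mipol1 differed by -0.91 in the stomach and 0.15 in the colon (stomach minus colon -1.06 ± 0.16, adjusted p = 0.026), where it lay at 5.77 and 5.92 at 6 h and 5.63 and 5.75 at 1 h. Ppp2r2b, a regulatory subunit of a protein phosphatase with a span of 453 kb, differed by -1.14 in the stomach and 0.25 in the jejunum (stomach minus jejunum -1.40 ± 0.22, adjusted p = 0.0245), and its jejunum level of 6.42 to 6.70 was far under the 8.07 to 9.67 of the stomach. The unnamed probe set 1389161_at differed by 0.82 in the stomach and -0.38 in the colon (stomach minus colon 1.20, adjusted p = 0.026).

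For other genes the jejunum had the larger difference. Dyrk2, a kinase of p53, differed by -0.06 in the stomach and 1.18 in the jejunum (stomach minus jejunum -1.24 ± 0.18, adjusted p = 0.0214). Cxcr4, a chemokine receptor of lymphocytes, differed by 0.19 in the stomach and -1.37 in the jejunum (stomach minus jejunum 1.57 ± 0.26, adjusted p = 0.0421). Lymphocyte markers moved with Cxcr4, with a median of 0.02 in the stomach and -0.41 in the jejunum, and their part in it was not tested. Fam151a differed by 0.13 in the stomach and -0.79 in the jejunum. Its stomach level of 6.65 to 6.89 was under the medians of those arrays and far under the 9.89 to 10.84 of the jejunum. By their brightest probe sets, which did not pass, Dyrk2 differed by 0.23 in the stomach and 0.82 in the jejunum, and Cxcr4 by 0.11 in the stomach and -1.12 in the jejunum. The probe sets of Ank3, a membrane scaffold gene, disagreed on which tissue moved more: the one that passed differed by -0.32 in the stomach and 0.69 in the jejunum, and the brightest by -0.68 in the stomach and 0.54 in the jejunum. Map2k2, a MAP kinase kinase, differed more in the stomach, by -0.49, against 0.33 in the jejunum. Each of these tissue differences passed against the jejunum, and none of them passed against the colon.

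The lists moved alike in some tissues and not in others, and no test was made of these medians. Mitosis genes had a median of -0.40 in the stomach, -0.66 in the jejunum and -0.90 in the colon. Endoplasmic reticulum chaperones had -0.28 in the stomach, -0.14 in the jejunum and 0.05 in the colon, and ribosome biogenesis genes 0.27 in the stomach, 0.02 in the jejunum and 0.36 in the colon. Of the genes past the threshold in the stomach, Mt2A differed by 1.68 in the jejunum and 1.03 in the colon, Angptl4 by 0.19 and 0.64, Sphk1 by 0.36 and 0.52, and Slc8a1 by -0.93 and -1.14. None of these 4 passed the test of a tissue difference.

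**Figure D5:**
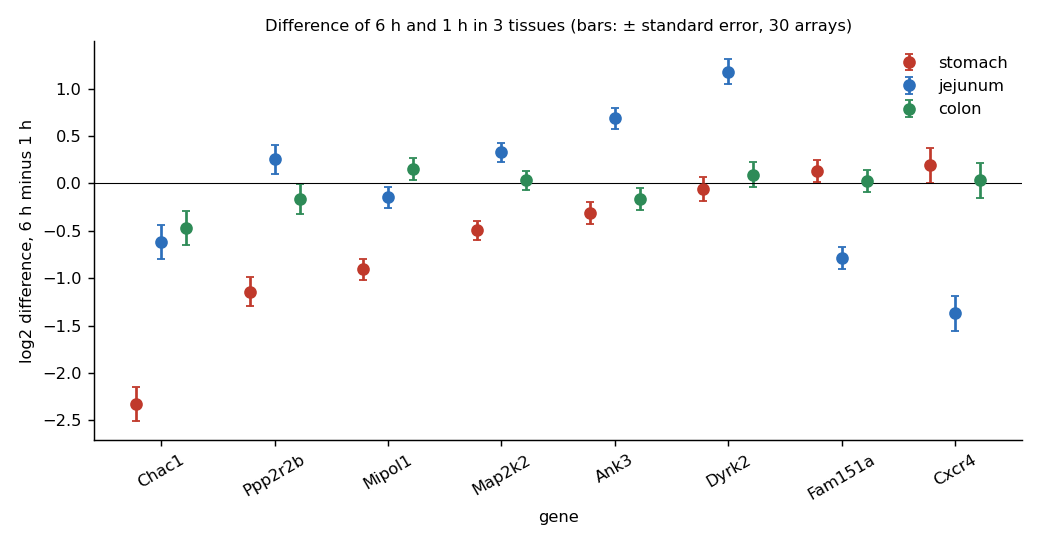
Difference of 6 h and 1 h in log2 (vertical axis) in stomach, jejunum and colon for the 8 named genes whose difference passed between tissues, in order of the stomach value; bars are ± 1 standard error from the fit of 30 arrays. Chac1 fell most in the stomach, and Dyrk2, Fam151a and Cxcr4 lay near 0 there and away from 0 in the jejunum.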

How the data were processed

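RNA of whole stomach, jejunum and colon was measured on Affymetrix rat genome arrays. The deposited values are log2 signals, which the authors made with RMA according to the submitters' processing notes. The sources used here do not give its version or say if all 30 arrays were run through it at once. Probe-level files were not used, and arrays have no read depth, so their number limits the precision.

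The 57 control probe sets of 31099 were left out. Of the 31042 tested, 20826 carried 1 symbol in the platform annotation, 436 several and 9780 no symbol. RefSeq's table of GRCr8 held the gene identifiers of 20758, with 0 symbols altered. Differences were tested with limma 3.58.1 under R 4.3.3 (lmFit and eBayes, two-sided) on the 10 stomach arrays, with Benjamini-Hochberg adjustment over all tested probe sets and a threshold of 0.05. Errors are standard errors from that fit, with a median of 0.122. The samples are pools, so the p-values measure the spread between pools. Tissue differences were tested on all 30 arrays.

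The naming rule took, in each direction, up to 12 genes past the threshold with arrays that did not overlap, filled to 12 by the smallest p. It added the 6 smallest p for each tissue difference and, of each gene list, the members with the smallest p, those that passed and the best known. The 36 lists have 768 entries, of which 681 were measured, each gene by its brightest probe set. Lists are described by counts and medians, with no list test. The members, lists and tests were chosen with earlier results of these data known. For the shares of promoters, motif letters were searched in the 250 bases before each RefSeq gene start and a short stretch after it. The printed sequences and the sites counted in them cover only the 250 bases before the start. Other settings were a filter on dim probe sets, quantile normalization, trend and robust variances, other sets of arrays, array weights, a replicate block, leaving out each array, and other probe sets of a gene. Settings for gene span and the leaving out of arrays in the 6-array fit were added after seeing the data. The limma script was tested on simulated data.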

Additional observations from a re-analysis of the deposited data

Results flagged for a closer look

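In a test of the difference itself, 12 differences between tissues passed in the comparison of 6 h with 1 h, 9 between stomach and jejunum and 3 between stomach and colon. As stomach minus jejunum differences in log2 these were 1.57 for Cxcr4, 0.918 for Fam151a, -0.804 for the unnamed probe set 1393310_at, -0.821 for Map2k2, -1 for Ank3, -1.24 for Dyrk2, -1.40 for Ppp2r2b, -1.41 for the unnamed probe set 1382616_at and -1.71 for Chac1. As stomach minus colon differences they were 1.20 for the unnamed probe set 1389161_at, -1.06 for Mipol1 and -1.86 for Chac1. Among the 9 probe sets, the stomach moved more than the jejunum for those of Chac1, Ppp2r2b and Map2k2, and less for the other 6. For Ank3, 1 of these 6, the brightest probe set moved more in the stomach (-0.68) than in the jejunum (0.54).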

How the results depend on the processing

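The number of probe sets past the threshold between 6 h and 1 h was 6 with 10 arrays. It was 299 with only the 0, 1 and 6 h arrays, 367 with only the 1 h and 6 h arrays, 280 with all 30 arrays, 18 with array weights, 10 with trend and robust variances and 16 at an adjusted p under 0.1, and 0 when any 1 of the 4 arrays was left out. Of the 299, 163 were shared with the 280 and 266 with the 367, and 152 passed in all 3 of these fits. A lone array was assumed to vary like the others. The count was 7 with the replicate block, 3 higher and 4 lower. Deviations of replicate 1 and 2 at 1 h and 6 h correlated with r = 0.309, those at 0 h and 1 h with 0.105 and those at 0 h and 6 h with 0.16. With only 2 replicate numbers and no label that ties a number to a shared litter, batch or day, whether the numbers pair the samples is not settled. Against the jejunum the count of 9 was 307 with only the 1 h and 6 h arrays of both tissues, 22 with the replicate block and between 0 and 6 without single arrays. Against the colon the count of 3 was 0 with only those arrays and between 0 and 6 without single arrays. The median of genes over 300 kb was -0.32 with dim probe sets dropped, against -0.14. Settings of variance, weights, block and other sets of arrays leave this median unchanged, so they do not test it. It was -0.15 with quantile normalization and lay between -0.16 and -0.12 without single arrays. With the probe sets of each gene averaged it was -0.10. For the second probe set of Slc8a1 the difference was 0.051. The median of the clock list, 0.051, lay between -0.012 and 0.043 without single arrays. The cause of these shifts was not tested.

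The 24 genes named by rank kept their direction under all settings of arrays, scaling and variance that were run. They were chosen for 6 h and 1 h arrays that did not overlap, so leaving out an array could not reverse them. Settings of variance and other sets of arrays leave the difference itself unchanged, so these settings do not test the direction. RMA values compress low signals, and the number of calls between the same 2 and 2 arrays depended on which other arrays shared the variance estimate.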
